A study of Mus musculus with 15 samples.

Results

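Mouse cardiac colony-forming fibroblasts of 2 kinds were compared after long culture. One side was 3 arrays of small-colony cells treated with 50 ng/ml PDGF-AB, at passage 15, and the other was 3 arrays of untreated large-colony cells at passage 15, together 6 of the 15 arrays in the series. These 6 were taken by their labels, which give passage, colony size and treatment. The treatment protocol of the labels also names AG1296, which blocks PDGF receptors, without a sample labelled for it. Colony size and PDGF-AB treatment differ together here, and no untreated small or treated large cells of passage 15 were among the samples, so their shares in any difference cannot be told apart. All cells came, per the labels, from hearts of male C57BL/6 mice aged 12 weeks, were sorted as SCA1+ PDGFRα+ CD31- and grew out as colonies. Nothing in the labels tells if the 3 arrays within a group stand for different mice or dishes, so p-values measure only the spread between these arrays. The other 9 arrays were untreated large, untreated small and PDGF-AB-treated small cells at passage 5, with 3 arrays each, and they serve below to show the same contrast early in culture.

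Cardiac colony-forming fibroblasts are stromal cells of the adult heart that attach, divide and form colonies in a dish, in the manner of mesenchymal stem cells of bone marrow. PDGF-AB is a dimer of the A and B chains of platelet-derived growth factor. It binds the tyrosine kinase receptors PDGFRα and PDGFRβ on mesenchymal cells, which signal through ERK and PI3 kinase to division and survival.

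Each value was a log2 intensity of an Affymetrix gene array, and 19938 genes were tested with limma over all 15 arrays. A gene was called when its Benjamini-Hochberg adjusted p was under 0.05. Arrays of 1 group correlated at 0.997 to 0.998 over all genes and arrays of the 2 groups at 0.969 to 0.972. Treated small arrays had higher lower quartiles (4.57 to 4.59) than untreated large arrays (4.38 to 4.43), and lower upper quartiles (7.90 to 7.94 against 8.05 to 8.15). With the genes split into 4 equal bins by level, the median difference between the groups ran from 0.20 in bin 2 to -0.11 in the brightest bin. It lay between -0.041 and 0.022 in every bin after cyclic loess between arrays, so small differences of dim genes moved with the scaling and larger differences are described first. The labels call the mice male, yet the 6 Y-linked genes other than Sry lay between 1.86 and 3.42 on all 15 arrays. Xist, the RNA that silences 1 X chromosome in female cells, lay at 10.29 to 10.39 on the treated small arrays and at 9.49 to 9.91 on the untreated large arrays. The labelled sex is thus not borne out by these genes on either side. The highest Y-linked value was 6.96, of Sry, and no linear fold is given where a group's mean was at or below it. There the log2 difference is one of measured intensities, with the size limited by background on the dim side, so the order of such genes by size is of intensities too.

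In all, 10637 of 19938 genes were called (53.4%), 5813 of them higher (29.2%) and 4824 lower (24.2%) in treated small cells. Counts of called list members below are to be read beside these shares. The split turned with the scaling: 54.6% of the calls were higher as deposited and 46.8% after cyclic loess. Among the called genes 925 (4.64%) differed by at least 2-fold, and these were mostly lower in the treated small cells, with 673 lower (3.38%) and 252 higher (1.26%). Of these 925 genes 924 had no overlap between the 3 arrays of one group and the 3 of the other, as did 12105 of all genes. After cyclic loess 850 of the 925 still differed by at least 2-fold in the same direction with an adjusted p under 0.05. In bulk RNA, fewer cells of a type and less RNA per cell cannot be told apart.

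**Figure D1:**
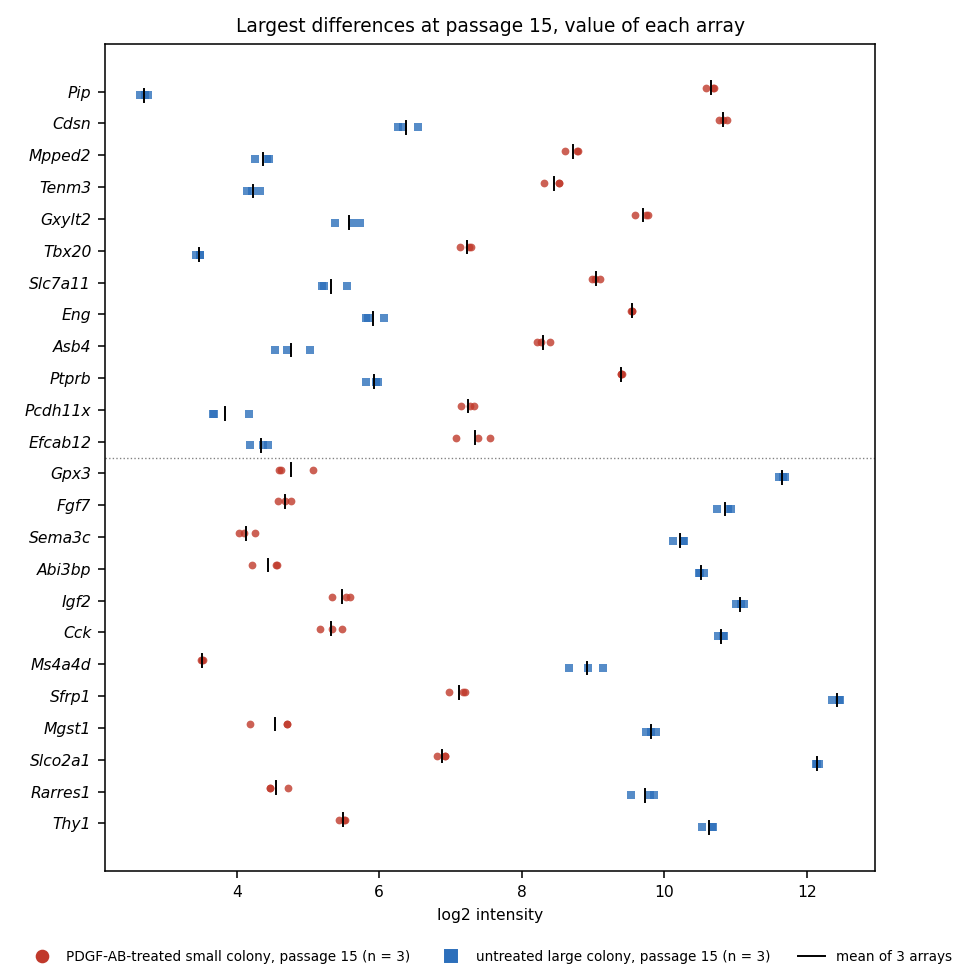
Log2 intensity (horizontal axis) of the 12 genes with the largest higher and the 12 with the largest lower differences in treated small cells, one dot or square per array and a bar at each group's mean. Genes were chosen for groups that do not overlap, and the widest gap is that of Pip, from 2.70 to 10.66.

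The gene with the largest difference was Pip, which encodes prolactin-induced protein, a secreted glycoprotein known from glands. Its levels were 10.69, 10.70 and 10.59 in treated small cells and 2.64, 2.71 and 2.75 in untreated large cells. The 3 treated small arrays were high and close together, and the 3 untreated large arrays were low. The difference was 7.96 (SE 0.089, limma adjusted p = 1.7e-18). At passage 5 Pip was as low in treated small (2.76) as in untreated large cells (2.67).

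Cdsn, which encodes corneodesmosin, an adhesion protein of the outer skin, measured 10.83, 10.88 and 10.77 in treated small cells against 6.26, 6.54 and 6.33, a difference of 4.45 (SE 0.069, adjusted p = 2.9e-17). Mpped2, a metallophosphoesterase gene, was higher by 4.35, and Tenm3, a teneurin of cell contacts, by 4.23. Gxylt2, a glucoside xylosyltransferase that extends sugars on Notch, measured 9.74, 9.59 and 9.77 against 5.62, 5.73 and 5.38. Asb4, a ubiquitin ligase component, was higher by 3.53, the protocadherin gene Pcdh11x by 3.41 and the calcium-binding protein gene Efcab12 by 3.01. A pair of genes with known roles in vessels was also in this set. Eng, the TGF-beta co-receptor endoglin, measured 9.55, 9.53 and 9.55 against 5.84, 6.07 and 5.82, and Ptprb, a receptor phosphatase of endothelial cells, was higher by 3.47. Pecam1, which encodes CD31, stayed between 4.18 and 4.66 on the 6 arrays and was called higher by 0.31 (0.13 and not called after cyclic loess). SCA1 (Ly6a) was not analysed here.

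Among the 12 largest differences in the other direction, Gpx3, the secreted glutathione peroxidase, came first, with levels of 4.59, 5.07 and 4.62 in treated small cells and 11.67, 11.61 and 11.70 in untreated large cells. Its difference was -6.90 (SE 0.10, limma adjusted p = 1.4e-17). Fgf7, a growth factor that stroma makes for epithelium, measured 4.76, 4.58 and 4.68 against 10.90, 10.74 and 10.94 (difference -6.19, SE 0.10, adjusted p = 5.2e-17). Sema3c, a secreted semaphorin needed for the cardiac outflow tract, measured 4.03, 4.10 and 4.26 against 10.27, 10.12 and 10.28. Abi3bp, a matrix protein, was lower by 6.08, the neuropeptide gene Cck by 5.47 and the membrane protein gene Ms4a4d by 5.39. Mgst1, a microsomal glutathione transferase, was lower by 5.27 and the retinoid-responsive gene Rarres1 by 5.19.

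Some surface markers of stroma were far apart. Thy1, the classical fibroblast antigen CD90, measured 5.52, 5.43 and 5.51 in treated small cells and 10.67, 10.53 and 10.68 in untreated large cells, a difference of -5.14 (SE 0.074, adjusted p = 1.2e-17). Cd34, a sialomucin of progenitors and adventitial stroma, measured 4.58, 4.76 and 4.60 against 8.52, 8.57 and 8.37. The list of 12 cardiac fibroblast markers, to which Thy1 belongs, went both ways, with 5 called higher and 4 lower. Its median was 0.08 against 0.069 over all genes. All 4 lower members were at least 2-fold lower, with Lum lower by 4.34 and Pdgfra by 2.21. Of the 5 higher members 1 was at least 2-fold higher, Postn, by 1.48. Ddr2, a collagen receptor of fibroblasts, was higher by 0.30. In a list of 16 genes of resting adventitial fibroblasts 8 were called lower and 3 higher, with 6 at least 2-fold lower and 0 at least 2-fold higher, Cd55 (-3.04) and Col14a1 (-2.90) among them. That list's median was -0.11.

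The growth factor receptors themselves differed as well. Pdgfra, the receptor by which the cells were sorted and a receptor for the added factor, measured 6.63, 6.61 and 6.66 in treated small cells and 8.76, 9.02 and 8.76 in untreated large cells. The difference was -2.21 (SE 0.084, limma adjusted p = 1.3e-12). No array of either group overlapped with the other, as was so for 12105 of all 19938 genes. At passage 5 Pdgfra was at 6.28 in treated small and 6.58 in untreated large cells. Pdgfrb was abundant on both sides, at 11.00 to 11.14 and 11.54 to 11.61, and was lower by 0.49. Among the ligands Pdgfc was higher, at 9.23, 9.28 and 9.26 against 7.91, 7.88 and 7.91, which is 2.56-fold. Pdgfa was higher by 0.38, and Pdgfb differed by 0.15 without passing the test.

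Genes that restrain ERK signalling, which are themselves switched on by ERK, were lower. Of 13 such genes 11 were called lower and 0 higher, with a median of -0.50 against 0.069 over all genes and 4 at least 2-fold lower. Dusp6, the phosphatase of ERK, measured 7.59, 7.50 and 7.56 against 9.14, 9.16 and 9.15, a 3.02-fold lower level. Spry1, a sprouty inhibitor, was lower by 1.35, Spry4 by 1.16 and Phlda1, a pleckstrin homology-like protein gene that growth factors induce, by 1.75, while Spry2 (-0.09) and Dusp5 (0.11) were not called. After cyclic loess 10 were lower and 1 higher. At passage 5 the median of the list was -0.01. Immediate early genes, which growth factors induce within minutes, went both ways, with 6 of 19 called higher and 9 lower. Fosl1, an AP-1 subunit, was at 10.19, 10.00 and 10.27 against 8.47, 8.38 and 8.26, while Fos was lower by 1.10 and Egr2 by 1.32.

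Secreted growth factors were a group with large differences. The IGF system had 9 of 12 members called lower and 3 higher, with a median of -0.88. Igf2, a fetal growth factor, measured 5.33, 5.53 and 5.59 in treated small cells against 11.12, 11.08 and 11.01, a difference of -5.59 (SE 0.078, adjusted p = 9.3e-18). Igf1 was 3.89-fold lower, and the binding protein genes Igfbp5 and Igfbp4 were lower by 3.55 and 2.96. Igfbp2 went the other way, at 9.39, 9.13 and 9.35 against 7.71, 7.69 and 7.55. In the FGF and HGF list 7 of 14 were called lower and 3 higher (0 higher after cyclic loess), with 4 at least 2-fold lower and 0 at least 2-fold higher. Beside Fgf7 they were Hgf, the ligand of MET, at 4.49, 3.93 and 4.39 against 8.75, 8.38 and 8.80, Fgf2 (-3.88) and Fgf10 (-3.44). The groups did not overlap in any of the genes of this paragraph, as was so for 12105 of all 19938 genes.

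Among the regulators of Wnt signalling the secreted inhibitors stood out. Sfrp1, which binds Wnt ligands, measured 7.17, 6.98 and 7.21 against 12.47, 12.46 and 12.36, a 39.7-fold lower level in treated small cells (difference -5.31, SE 0.063, limma adjusted p = 2.0e-18). Its relative Frzb was lower by 4.98. The Wnt amplifier Rspo3 was lower by 3.48, and Nkd1 and Nkd2, feedback inhibitors inside the cell, by 1.91 and 3.11. Of the 25 Wnt genes 12 were called higher and 9 lower (7 and 10 after cyclic loess), while 6 were at least 2-fold lower and 0 at least 2-fold higher. The list's median of 0.14 became -0.025 after cyclic loess. In the BMP list 10 of 16 were called lower and 1 higher, with the BMP target Id1 at 7.42, 7.44 and 7.36 against 9.06, 9.29 and 9.02. The median was -0.34, and no member was at least 2-fold higher.

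Several inflammatory mediators were lower. Of 20 chemokines and cytokines 9 were called lower and 6 higher, with a median of -0.14. After cyclic loess 10 were lower and 3 higher, with a median of -0.32. As deposited, 6 were at least 2-fold lower and 0 at least 2-fold higher. Ccl7, which draws monocytes, measured 7.71, 7.43 and 7.69 against 11.02, 11.32 and 10.98 and was 11.3-fold lower. The related monocyte chemokine Ccl2 was lower by 3.12, the alarmin Il33 by 3.52 and Il6, an acute-phase cytokine, by 3.44. Cxcl12, the stromal ligand of CXCR4, was not among them, at 11.61, 11.58 and 11.60 against 11.33, 11.33 and 11.24. Complement and acute-phase genes had 8 of 9 called lower and 0 higher, with a median of -1.17 here and 0.22 at passage 5. Serping1, the inhibitor of complement C1, measured 4.32, 3.98 and 4.35 against 8.57, 8.36 and 8.39, C4b was lower by 2.08 and C1s1 by 1.82.

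Some genes of prostaglandin and retinoid handling were lower too. Slco2a1, which carries prostaglandins into cells, measured 6.92, 6.81 and 6.93 against 12.15, 12.17 and 12.13 (difference -5.26, SE 0.072, adjusted p = 9.3e-18). Ptges, a prostaglandin E synthase, was lower by 4.57 and the receptor gene Ptger4 by 3.13. Of 14 genes of the pathway 8 were called lower and 2 higher (8 and 0 after cyclic loess). Of 14 retinoic acid genes 7 were called lower, 5 of them at least 2-fold, and 2 higher. The retinaldehyde dehydrogenases Aldh1a3 (-3.45) and Aldh1a2 (-2.85) were lower, while Aldh1a1 was higher by 0.34.

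**Figure D2:**
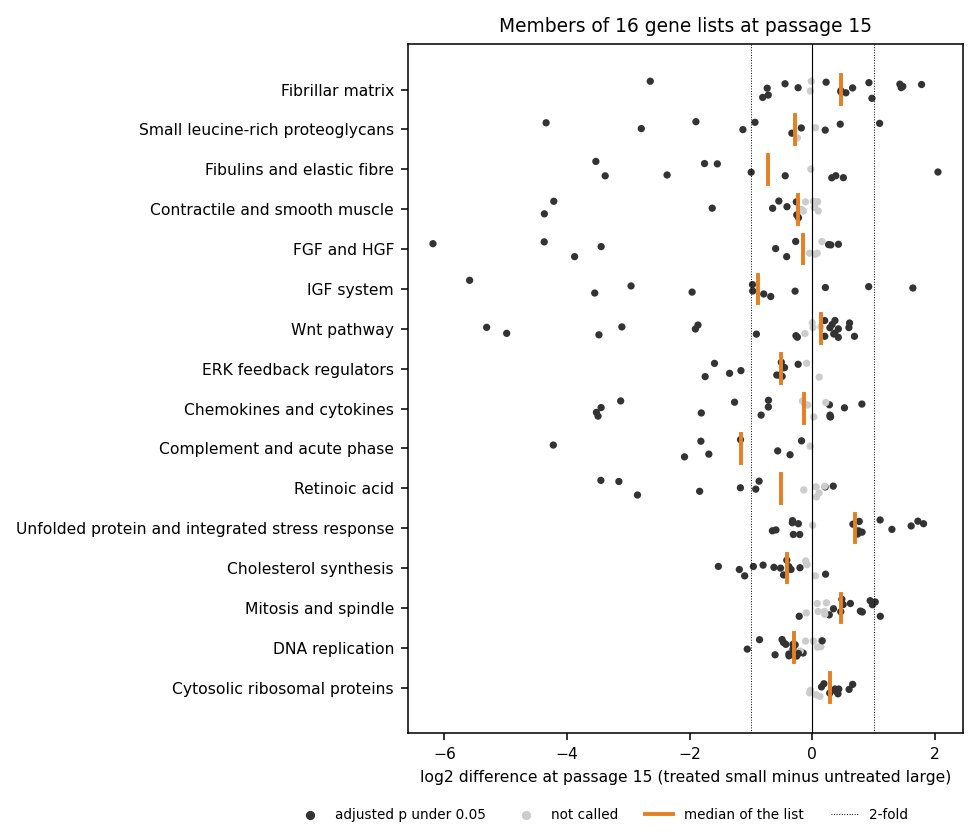
Log2 difference at passage 15 (horizontal axis, treated small minus untreated large) of each tested member of 16 gene lists, dark where called and pale where not, with an orange bar at the list's median. Genes below -3 are seen in the lists of proteoglycans, fibulins, contractile genes, FGF and HGF, IGF, Wnt, cytokines, complement and retinoids, while the medians run from -1.17 (complement) to 0.70 (stress response).

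RNA of matrix genes differed in both directions. Of 19 fibrillar matrix genes 11 were called higher and 6 lower, with a median of 0.47. Col6a3, a collagen VI chain, measured 10.68, 10.70 and 10.72 against 8.93, 8.87 and 8.95 and was 3.44-fold higher. Postn, the matricellular protein periostin, measured 11.32, 11.34 and 11.36 against 9.97, 9.83 and 9.80, and Col3a1 was higher by 1.43 and Col1a1 by 0.66. The other collagen VI chains went the opposite way, with Col6a1 at -0.74 and Col6a2 at -0.72, and Tnc, the anti-adhesive tenascin C, was lower by 2.64. Lama2, the laminin α2 chain of muscle basement membrane, measured 8.55, 8.53 and 8.58 against 5.87, 5.68 and 5.63.

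Small leucine-rich proteoglycans, which bind collagen fibrils, were lower in 7 of 12 and higher in 3 (7 and 1 after cyclic loess). Lum, lumican, measured 5.57, 5.54 and 5.58 against 10.00, 9.88 and 9.83, and Dcn, decorin, 10.37, 10.32 and 10.39 against 12.29, 12.20 and 12.28. Fmod, fibromodulin, was higher by 1.10. Among 12 fibulins and elastic fibre genes 7 were called lower and 4 higher. At least 2-fold lower were 5, such as Fbln7 (-3.53), Efemp1 (-3.38) and Mfap5 (-2.37), and Ltbp4, which stores latent TGF-beta, was higher by 2.05. Matrix-degrading enzymes also went both ways: Mmp3 measured 4.03, 4.35 and 4.54 against 8.81, 8.88 and 8.74 and Mmp13 was lower by 4.09, whereas the membrane enzyme Mmp16 was higher by 2.70 and Adamts1 by 1.57. No array of one group reached those of the other in Lum, Dcn or Mmp3, as was so for 12105 of all 19938 genes.

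Contractile genes of smooth muscle and myofibroblasts were lower in 9 of 17 and higher in 0. Cnn1, calponin, measured 5.89, 6.30 and 6.15 against 10.33, 10.27 and 10.38, and Actg2, the enteric smooth muscle actin, 7.17, 6.87 and 7.21 against 11.44, 11.39 and 11.52, a 20.7-fold lower level. Myl9, the regulatory myosin light chain, was 3.10-fold lower. Acta2, the smooth muscle actin that marks myofibroblasts, was high on both sides, at 12.35 to 12.37 against 12.57 to 12.61, a difference of -0.22. The other 8 members were not called. The median of the list was -0.22 here but 0.24 at passage 5, where 11 were called higher and 4 lower.

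Developmental transcription factors went both ways. The counts of this paragraph stand beside 29.2% called higher and 24.2% called lower over all genes. Tbx20, a T-box factor of the developing heart, measured 7.29, 7.13 and 7.26 in treated small cells and 3.49, 3.49 and 3.43 in untreated large cells (difference 3.76, SE 0.087, limma adjusted p = 2.4e-15). Gata4, a zinc finger factor of the same tissue, measured 8.60, 8.45 and 8.53 against 6.42, 6.58 and 6.52. Tbx5, the T-box factor of atria and forelimb, was the reverse, at 5.80, 5.72 and 5.83 against 9.48, 9.27 and 9.36. Of 22 cardiac and epicardial factors 8 were called higher and 6 lower, and Wt1, an epicardial factor, at 5.88 to 6.05 against 5.74 to 5.97, was not called. Tnnt2, cardiac troponin T, was 3.38-fold higher, whereas 8 of the 12 genes of the cardiomyocyte list were not called. Hox genes, which record position along the body axis, were called lower in 12 of 37 and higher in 8 (11 and 2 after cyclic loess), with a median of 0.06, and 7 were at least 2-fold lower and 0 at least 2-fold higher. Hoxb9 measured 7.56, 7.44 and 7.37 against 10.36, 10.29 and 10.27 and was 7.21-fold lower, and Hoxb5 (-1.54), Hoxb7 (-1.50) and Hoxa3 (-1.28) followed. Among mesenchymal factors Twist2 (-2.58) and Foxd1 (-1.52) were lower, and of 24 such genes 11 were called lower and 6 higher.

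Imprinted genes that set fetal growth also split, with 7 of 12 called lower and 3 higher and a median of -0.32. At least 2-fold lower were 4, and 2 were at least 2-fold higher. Peg3, a zinc finger gene expressed from the paternal copy, measured 4.70, 5.19 and 5.05 against 9.92, 10.06 and 10.13, and Mest was lower by 1.76. Dlk1 and its neighbour Meg3 were both higher, by 1.43 and 1.42.

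The stress response list was divided by textbook role into 2 groups, and these went opposite ways. Its genes for the integrated stress response and amino acid supply, which ATF4 switches on when translation is slowed or amino acids run short, were called higher in 9 of 9, with 5 at least 2-fold higher and a median of 1.11. At passage 5 that median was -0.17. Chac1, which breaks down glutathione, measured 9.41, 9.26 and 9.43 against 7.79, 7.81 and 7.66 and was 3.06-fold higher, the pseudokinase gene Trib3 was higher by 1.81, and Phgdh, which starts serine synthesis, by 1.72. Asns, asparagine synthetase, measured 11.63, 11.72 and 11.69 against 10.97, 10.90 and 10.92. The 9 genes for chaperones and the unfolded protein response of the endoplasmic reticulum behaved otherwise, with 7 called lower, 1 higher and a median of -0.31, Pdia4 (-0.65) and Dnajb9 (-0.59) among the lower.

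Genes for cysteine supply were higher alongside. Slc7a11, the cystine importer xCT, measured 8.98, 9.10 and 9.03 against 5.55, 5.23 and 5.19 (difference 3.71, SE 0.082, adjusted p = 1.4e-15), and Cth, which makes cysteine from cystathionine, 8.28, 8.37 and 8.46 against 5.41, 5.49 and 5.23. In the list of 20 NRF2, cysteine and glutathione genes 7 were called higher and 9 lower, with Gsta4, a glutathione transferase, higher by 2.19. Gclm (-0.94) and Gclc (-0.74), the 2 subunits of the enzyme that starts glutathione synthesis, were lower, as was Sod3 (-3.57), the extracellular superoxide dismutase.

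The RefSeq promoters of the GRCm38.p6 build (250 bases before to 50 after the start site) were searched on both strands for TGATGNAA. These letters are the core of the C/EBP-ATF response element to which ATF4 binds. The motif was in 3 of the 9 integrated stress genes, Chac1, Trib3 and Asns, and in 4.51% of all 27025 promoters. It was also in Herpud1, from the chaperone and unfolded protein group, and so in 4 of the 18 genes of the whole stress list. In Slc7a11 it matched at 2 places, beginning 66 and 47 bases before the start site, and the promoter of Cth was not analysed here. The stretches around the matches of Slc7a11, Chac1 and Asns, all upstream of the start site, are shown 5′ to 3′ on the gene's strand with the matches in capitals, at chr3:50443633-50443699 (minus strand), chr2:119351029-119351076 (plus strand) and chr6:7693210-7693252 (minus strand). A match describes the letters and does not show that a factor was bound. The 9 genes were grouped by their known tie to ATF4 and amino acid supply, so their share of matches does not bear on these arrays.
Slc7a11: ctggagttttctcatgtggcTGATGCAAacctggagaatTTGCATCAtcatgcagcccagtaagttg
Chac1: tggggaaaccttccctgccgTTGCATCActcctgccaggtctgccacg
Asns: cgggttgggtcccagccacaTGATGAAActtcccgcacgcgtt

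Genes of cholesterol and fatty acid synthesis were mostly called lower. Of 17 cholesterol synthesis genes 12 were called lower and 1 higher, with a median of -0.42 against 0.07 at passage 5. Idi1, isopentenyl diphosphate isomerase, measured 5.32, 5.49 and 5.33 against 7.06, 6.84 and 6.83, and Cyp51 (-1.19) and Msmo1 (-1.10) were the other members at least 2-fold lower. Of 10 fatty acid genes 6 were called lower and 0 higher, led by the desaturase genes Fads2 (-1.31), Scd1 (-1.25) and Fads1 (-1.12). The other 4 members were not called.

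Among cell cycle genes, most mitosis genes were called higher and most DNA replication genes lower. Of 19 mitosis and spindle genes 12 were called higher and 1 lower, with a median of 0.46, and the median levels of the list were 8.78 to 8.93 on the treated small arrays and 8.22 to 8.33 on the untreated large arrays. Cenpe, a kinetochore motor, was higher by 1.11, and Mki67, the Ki-67 antigen of dividing cells, measured 9.04, 8.77 and 9.09 against 8.13, 8.05 and 8.36, a 1.72-fold difference (limma adjusted p = 1.8e-06). DNA replication genes were called lower in 15 of 22 and higher in 1, with a median of -0.30 (-0.21 at passage 5). That list's median levels overlapped, at 8.35 to 8.41 on the treated small and 8.34 to 8.54 on the untreated large arrays. Only 1 member was at least 2-fold lower. Ccne1, cyclin E1, measured 8.64, 8.53 and 8.68 against 9.75, 9.62 and 9.66, and Pcna was lower by 0.47. Of 11 replication-dependent histone genes 4 were called lower, 1 higher and 6 not called, with a median of -0.12. Among CDK inhibitors Cdkn2a was higher by 0.33 and Cdkn2b lower by 0.63. Cytosolic ribosomal protein genes were called higher in 9 of 13 and lower in 0, all by less than 2-fold. The letters TTTGAA, the core of the cell cycle homology region, were found on either strand in 12 of the 16 mitosis genes with a RefSeq promoter and in 20.2% of all promoters. The mitosis list was chosen by known role, so this share does not bear on these arrays. The DNA replication list was not searched.

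Most markers of other cell types were dim on both sides, with exceptions of which some are named here. The median level of 12 endothelial markers was 5.03 to 5.13 on the treated small arrays and 4.86 to 4.98 on the untreated large arrays, with Flt1 (-1.02) the only member whose group mean passed 6.96. In the macrophage and leukocyte list of 13 only Lyz2 passed it, at 5.37, 5.12 and 5.58 against 8.83, 8.75 and 8.62, while Ptprc, Adgre1 and Csf1r stayed below. Pericyte and mural genes went both ways, with Cspg4, the proteoglycan NG2, at 9.11, 8.84 and 9.13 against 6.59, 6.39 and 6.40 and Rgs5 lower by 1.99. Pdgfrb, also in that list, was bright on both sides. In the epithelial and mesothelial list the lowest difference was -1.16. The part of other cells in these differences was not tested. The medians of the endothelial, macrophage, mural, cardiomyocyte and epithelial lists, 0.13 to 0.27, were within 0.10 of 0 after cyclic loess.

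**Figure D3:**
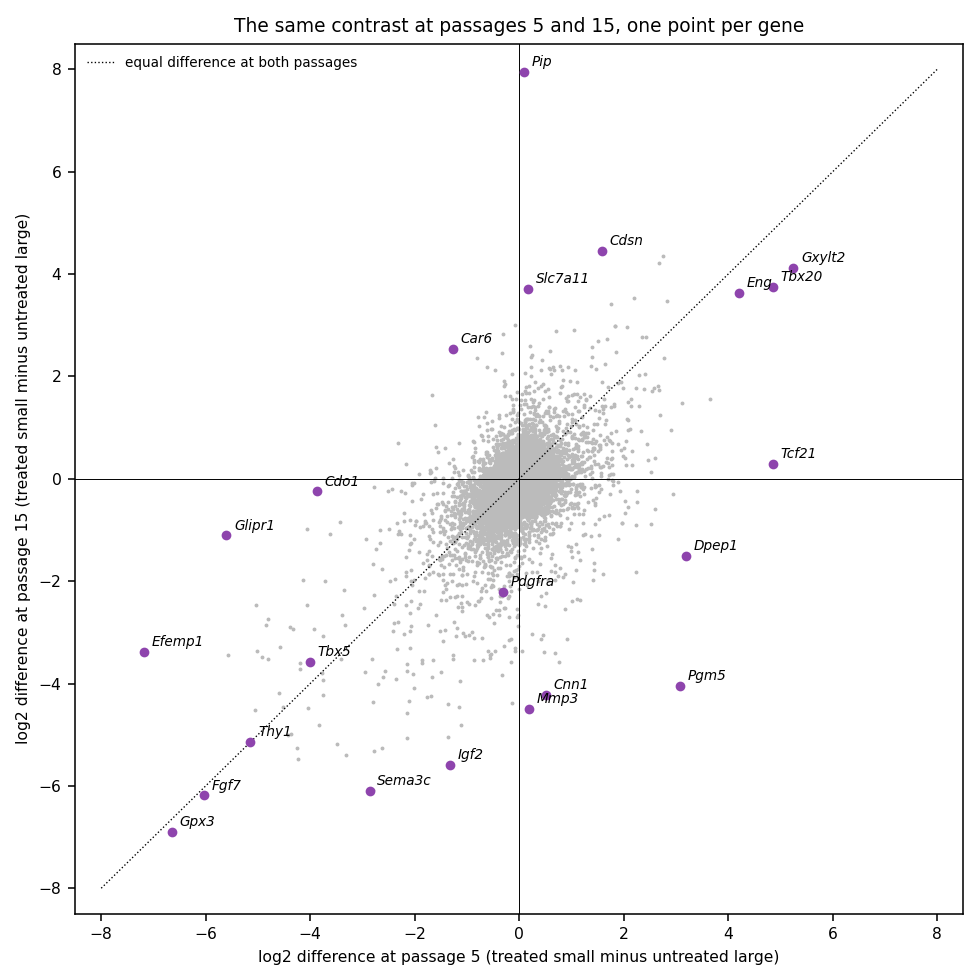
Log2 difference between treated small and untreated large cells at passage 15 (vertical axis) against the same difference at passage 5 (horizontal axis), one grey dot per gene, with named genes in purple. Gpx3, Fgf7, Thy1 and Tbx5 lie near the dotted line of equal differences, Pip and Slc7a11 have passage 5 differences of 0.09 and 0.17, and Pgm5 and Dpep1 change sign.

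The same contrast could be set beside passage 5, whose group means come from other arrays, although the spread in the tests was shared over all 15. Over all 19938 genes the differences at the 2 passages correlated at r = 0.54 (Spearman's rho 0.39), a description across genes that are not independent replicates. Of the 252 genes at least 2-fold higher at passage 15, 88 (34.9%) were so at passage 5, which is 27.2% of the 323 found there, and 3 were at least 2-fold lower. Of the 673 genes at least 2-fold lower, 232 (34.5%) were so at passage 5, 57.6% of the 403 found there, and 22 were the reverse. Thy1 stood at -5.14 at both passages, Fgf7 at -6.19 and -6.04, Gpx3 at -6.90 and -6.65, Tbx20 at 3.76 and 4.86, Eng at 3.64 and 4.20 and Tbx5 at -3.59 and -4.01.

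A test of the change itself, the passage 15 difference minus the passage 5 difference, called 6865 genes (34.4%), 3699 of them positive and 3166 negative. The largest positive changes were those of Pip (7.87), Glipr1 (4.50), Car6 (3.82), Efemp1 (3.80), Cdo1 (3.63) and Slc7a11 (3.54). Glipr1, a secreted CAP-family gene, was at 6.37 in treated small and 11.98 in untreated large cells at passage 5, and at 10.57 and 11.67 at passage 15, so that a wide gap had become a narrow one. Efemp1, fibulin-3, kept its direction at -7.18 and -3.38, and Cdo1, cysteine dioxygenase, went from -3.87 to -0.25, a passage 15 difference that lost its call when arrays were centred on their medians and when any of 5 single arrays was left out. Car6, a secreted carbonic anhydrase, turned from -1.27 to 2.54.

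The largest negative changes were those of Pgm5 (-7.11), Cnn1 (-4.73), Dpep1 (-4.70), Mmp3 (-4.69), Tcf21 (-4.57) and Npy4r (-4.35). Pgm5, a phosphoglucomutase-like protein of muscle cell adhesions, was at 8.08 in treated small and 5.01 in untreated large cells at passage 5, and at 5.03 and 9.07 at passage 15. Dpep1, a membrane dipeptidase, reversed in the same way, from 3.19 to -1.51. Tcf21, a factor of epicardium-derived fibroblasts, was at 9.56 in treated small cells at passage 5 but at 4.78, 4.92 and 5.09 at passage 15, next to 4.58, 4.53 and 4.83 in untreated large cells. Hgf and Cd34, with differences of -4.37 and -3.84 at passage 15, were at -0.14 and -0.32 at passage 5.

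At passage 5 untreated small cells had also been measured, so colony size and PDGF-AB can be seen apart there. Of the 252 genes at least 2-fold higher at passage 15, 87 were at least 2-fold higher in untreated small than in untreated large cells of passage 5, and 8 were at least 2-fold higher in treated than in untreated small cells, with 16 at least 2-fold lower. Of the 673 lower genes, 209 were at least 2-fold lower with small colony size at passage 5 and 41 higher, while 52 were at least 2-fold lower with PDGF-AB and 25 higher. PDGF-AB also moved fewer genes by 2-fold at passage 5: 421 genes were at least 2-fold higher with small size against 82 with PDGF-AB, and 362 against 196 lower. The overlaps are 20.7% of the 421 and 9.76% of the 82, and 57.7% of the 362 and 26.5% of the 196. These 2 passage 5 contrasts share the untreated small arrays and are given side by side. For Thy1 they were -5.22 for size and 0.08 for PDGF-AB, for Gpx3 -6.82 and 0.17, for Eng 4.01 and 0.19, and for Tbx20 5.31 and -0.45. Ms4a4d was at -0.38 for size and -2.94 for PDGF-AB, and Igf2 at -3.46 and 2.14. Whether the same shares hold at passage 15 cannot be told from these arrays.

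**Figure D4:**
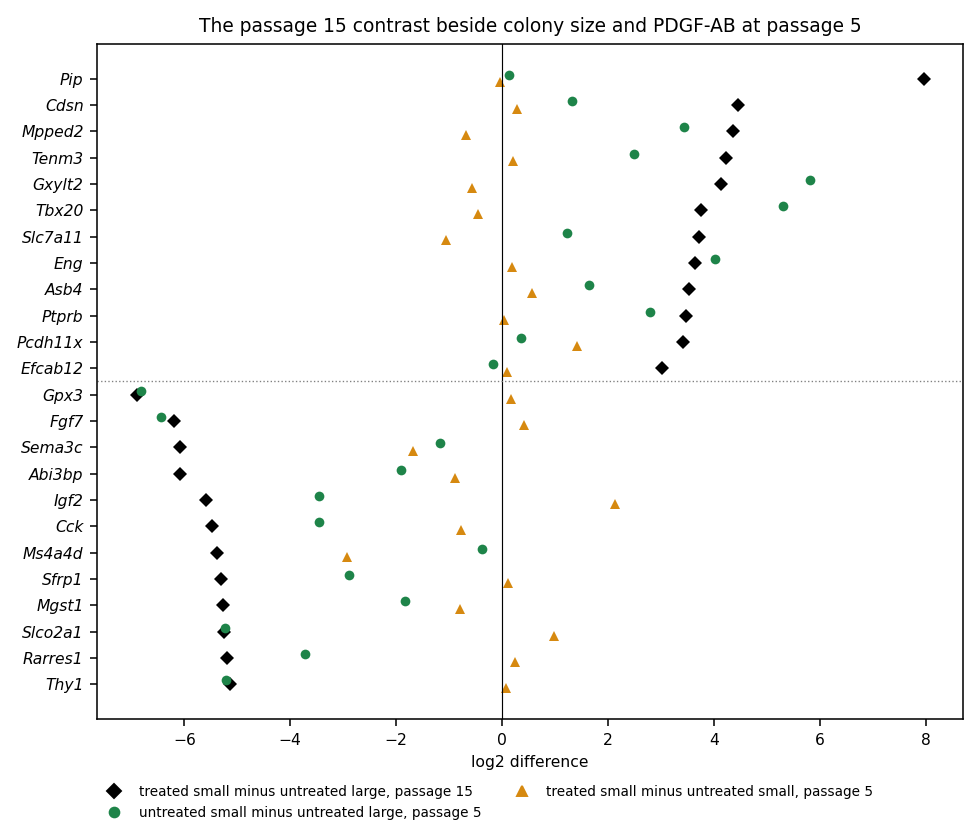
Log2 differences (horizontal axis) of the 24 genes with the largest passage 15 differences: black diamonds for treated small minus untreated large at passage 15, green dots for untreated small minus untreated large at passage 5 and orange triangles for treated minus untreated small at passage 5. Gpx3, Slco2a1 and Thy1 have green dots on top of their black diamonds, Pip and Efcab12 have both passage 5 values near 0, and Ms4a4d has its triangle farther from 0 than its dot.

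Genes of whole chromosomes differed together. Over the 9955 placed genes at or above the median level, the genes of chromosome 12 had a median difference of 0.33 above that of all placed genes, with 85.8% of its 338 genes above the overall median. Chromosome 16 stood at 0.26, chromosome 4 at 0.23 and chromosome 1 at 0.17. Chromosome 17 stood at -0.31, chromosome 10 at -0.29, chromosome 13 at -0.27 and chromosome 19 at -0.22. Over all 19844 placed genes, dim ones included, the values kept their signs and were smaller: 0.15 for chromosome 12, 0.078 for chromosome 16, 0.096 for chromosome 4, 0.066 for chromosome 1, -0.13 for chromosome 17, -0.20 for chromosome 10, -0.16 for chromosome 13 and -0.11 for chromosome 19. After cyclic loess the 8 values were within 0.03 of those given. At passage 5 the medians were 0.25 for chromosome 12, 0.19 for chromosome 4, -0.25 for chromosome 17, -0.17 for chromosome 10, -0.35 for chromosome 13 and -0.23 for chromosome 19. Chromosome 16 (-0.010) and chromosome 1 (-0.020) were near 0 there. Copy number was not measured here.

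**Figure D5:**
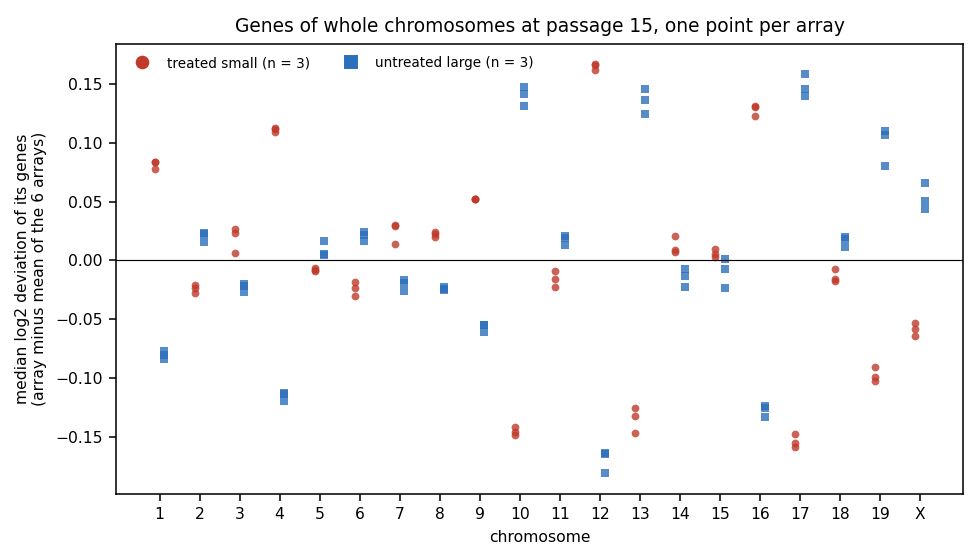
Median log2 deviation of the genes of each chromosome (vertical axis) on each of the 6 passage 15 arrays, as array value minus the mean of the 6 arrays, relative to the median of all placed genes on that array, for genes at or above the median level. Treated small arrays (red dots) lie above untreated large arrays (blue squares) on chromosomes 1, 4, 12 and 16 and below them on chromosomes 10, 13, 17 and 19.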

How the data were processed

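The deposited values are log2 intensities made by the authors, with RMA and limma listed in the submitters' processing notes, without versions. RMA corrects background, equalizes array distributions and summarises probes, and the raw scans were not used here. Of 28853 probe sets 21789 named 1 gene, and where a gene had several (999 genes) the probe set brightest on average over the series was kept, which left 19938 genes.

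Limma 3.58.1 in R 4.3.3 was fitted with group means over all 15 arrays (10 residual and 5.80 prior degrees of freedom), with 2-sided moderated tests and Benjamini-Hochberg adjustment over all genes in each comparison. The median SE was 0.0778, and the number of arrays, 3 in each group, limits the precision. The 54 lists held 829 genes, 767 of them tested, 21 on probe sets of several genes (Cdkn1a among them) and 41 on none (Ly6a among them). The comparison, the lists and the genes in them were chosen with earlier results of these data known. Named were the 12 largest differences each way without overlap between groups, the 6 largest changes of the difference each way, members of the lists, and fixed genes.

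Same-numbered arrays of the 2 groups did not deviate together (correlations 0.025, 0.020 and -0.10, against -0.083 to 0.071 for unlike numbers). With 3 arrays in each group this cannot decide whether equal numbers mark a pair, and the labels do not say. The main fit did not pair them. Alternatives were other scalings, filters, probe set rules, models and leaving out each array.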

Additional observations from a re-analysis of the deposited data

Results flagged for a closer look

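The difference between treated small and untreated large cells was not the same at passages 5 and 15. The test of that change called 6865 genes with limma. The largest, as the passage 15 difference minus the passage 5 difference, were 7.87 for Pip (adjusted p = 2.4e-16), 4.50 for Glipr1, 3.82 for Car6, 3.80 for Efemp1, 3.63 for Cdo1 and 3.54 for Slc7a11. On the other side were -7.11 for Pgm5 (adjusted p = 1.9e-16), -4.73 for Cnn1, -4.70 for Dpep1, -4.69 for Mmp3, -4.57 for Tcf21 and -4.35 for Npy4r. No test for a single outlying value was run within groups of 3 arrays, and each array was left out in turn instead.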

How the results depend on the processing

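The count of called genes at passage 15 was 10637 as deposited, 6829 without genes below the median level (9969 genes tested) and 925 with a minimum of 2-fold. It was 8635 after cyclic loess and 10703 with the replicate number as a block, which pairs arrays by label only. Leaving out 1 array at a time gave 8982 to 10042. Genes at least 2-fold higher numbered 191 to 302 and at least 2-fold lower 538 to 799 over the alternatives, and 248 to 263 and 660 to 701 with 1 array left out. The change of the difference called 6865 genes, 5756 to 7229 with 1 of 12 arrays left out, 6946 with the block and 844 with a minimum of 2-fold.

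Near 0, signs moved with the setting. After cyclic loess Wt1 became -0.027 and Spry2 0.015, neither called, and the median of the Wnt list became -0.025, of cardiac factors -0.040, of macrophage markers -0.017, of mural markers -0.012 and of cardiomyocyte markers -0.035. Without genes below the median level the medians became -0.83 for the Wnt list, -0.11 for cardiac factors, -0.37 for endothelial, -2.12 for macrophage, -0.24 for epithelial and -0.14 for skeletal muscle markers, of which few members were left. With all placed genes chromosome 15 stood at -0.0039 and chromosome 3 at -0.00020. The causes of these moves were not tested. Signal over background limits the genes whose group mean lies at or below 6.96.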

Other observations

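Some genes outside the groups above also differed by at least 2-fold. Interferon-induced genes were called higher in 8 of 18 and lower in 2 (5 and 2 after cyclic loess). Ifit3 was at 7.94, 7.95 and 7.89 in treated small cells against 6.21, 6.03 and 6.12, and Ifit1 was higher by 1.36. Tnfsf15, a TNF-family cytokine, was lower by 4.51 and the death receptor gene Fas by 2.29. Alpl, an enzyme of mineralising cells, was lower by 2.66 and Pparg, the regulator of fat cells, by 2.32. In the fat, bone and cartilage list of 16 genes 6 were called higher and 6 lower, with a median of 0.08. Over all genes 29.2% were called higher and 24.2% lower. Among semaphorins Sema3e, at 8.00, 7.87 and 8.02 against 5.50, 5.65 and 5.67, was opposite to Sema3c. Itga1, a collagen receptor chain, was lower by 2.39, and Ctsk, a collagen-degrading cathepsin, was higher by 1.22.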
